A study of Mus musculus with 6 samples.

Results

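C/EBP factors and the regulators PU.1 (Spi1), GFI1 and RUNX1 set the identity of myeloid cells, and 8 genes of this group were followed: Cebpa, Cebpb, Cebpd, Cebpe, Cebpz, Spi1, Gfi1 and Runx1. They were chosen by name, 1 Ensembl gene ID each in GENCODE M21, out of 43432 IDs in the count tables. All 8 passed the filter on low counts and were among the 12908 genes tested. The RNA came from neutrophils of the uterus of C57BL/6 mice with the allele Pgrcre/+, in which Cre is made from the progesterone receptor locus, together with a floxed allele. All mice were 4 weeks old (postnatal day 28), all carried the same alleles, and no group without them is described in the labels. From postnatal day 18 to 28 the normoxia group (3 libraries) breathed ambient air and the hyperoxia group (3 libraries) lived in a chamber at 60% oxygen. Cells high for Ly6G and positive for CD45 and CD11b were sorted from digested uteri, and the labels do not say how many mice stand behind a library.

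Libraries held 38683293 to 61715617 counts on genes. The neutrophil genes S100a8 (13240 to 44970 CPM, counts per 1000000 scaled by TMM) and Ly6g (38.9 to 351 CPM) were present in every library. Markers of other cells were present too: 14 monocyte and macrophage markers summed to 1621 to 1856 CPM in normoxia and 2398 to 3583 in hyperoxia, and 10 dendritic cell and MHC class II markers to 475.5 to 513.9 and 698.4 to 2102, with no member of either list at or under 3 counts in every library. Endothelial markers (8 genes) summed to 9.58 to 14.2 against 26.0 to 56.7 CPM, and stromal and smooth muscle markers (12 genes) to 33.0 to 77.7 against 58.2 to 269. T and NK cell markers (10 genes, 5.01 to 15.5 against 6.23 to 26.3), B cell markers (6 genes, 30.5 to 31.6 against 29.3 to 53.8, with Pax5 at or under 3 counts), epithelial markers (8 genes, 88.9 to 187 against 17.1 to 251) and erythroid markers (6 genes, 58.1 to 729 against 116 to 812) overlapped between the groups in their sums. Ighm made up most of the B cell sum, with 28.7 to 29.7 CPM in normoxia and 27.4 to 47.6 in hyperoxia. Eosinophil, mast cell and basophil markers (8 genes) summed to 107 to 183 against 40.4 to 101 CPM. Siglecf made up most of that sum, with 103.1 to 177.7 CPM in normoxia and 38.92 to 94.97 in hyperoxia. Epx, Mcpt4 and Mcpt8 were at or under 3 counts in every library, and Prg2, Cpa3 and Tpsb2 were also too low to be tested. The sum thus describes mainly Siglecf and not these cell types as a whole. Hyperoxia replicate 2 stood apart from the other 5 libraries in its granule genes, as described with Cebpe. It also had the lowest epithelial sum, 17.1 CPM beside 88.9 to 251 in the other 5 libraries, and the highest endothelial sum (56.7 CPM). In sorted bulk RNA, fewer cells of a type and less RNA per cell cannot be told apart.

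C/EBP proteins bind DNA as dimers through a basic region and a leucine zipper. In textbook granulopoiesis, C/EBP alpha with PU.1 and RUNX1 opens the myeloid programme in progenitors, GFI1 represses monocytic genes, C/EBP epsilon drives the late granule genes, and C/EBP beta and delta serve mature cells and emergency or inflammatory responses. Cebpz shares the CCAAT-binding name but encodes a nucleolar protein of ribosome assembly with no leucine zipper.

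The 8 genes spanned more than 4 orders of magnitude in level, and their order was nearly the same in both groups. On the scale of counts per kilobase of exon, scaled to 1000000 in each library, Cebpb stood at 13880, 14791 and 12230 in normoxia and at 11726, 7514 and 11473 in hyperoxia, which placed it between 9th and 16th of all genes in each library. Cebpb also held 0.634% to 1.01% of all counts. Among the 5 leucine zipper genes Cebpa, Cebpb, Cebpd, Cebpe and Cebpg, it made up 97.4% to 98.5% of the summed level per length. Counts per gene do not separate the activating and inhibitory C/EBP beta proteins, which are made from different start codons of 1 mRNA.

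Spi1, which encodes PU.1, came next, with a mean level per length of 1356 ± 70.6 in normoxia and 1191 ± 148 in hyperoxia (SD, n = 3 each), 10.05 and 8.60 times below Cebpb. Cebpd followed at 281 ± 20.5 and 173 ± 16.2, and between it and all lower members lay a gap of 30.2 times in normoxia and 14.0 times in hyperoxia. Cebpe (9.30 ± 0.463 in normoxia), Runx1 (8.36 ± 1.2) and Cebpz (6.10 ± 0.435) overlapped as neighbours across the 6 libraries and were not ordered beyond their spread. With the length of the longest transcript in place of all exons, Runx1 averaged 14.0 and Cebpe 7.61 in normoxia, which turned their order. Cebpa (1.75 ± 0.397 in normoxia, 3.22 ± 1.39 in hyperoxia) and Gfi1 (0.325 ± 0.0694 and 0.296 ± 0.109) were lowest, each below the member above it in 6 of 6 libraries.

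**Figure D1:**
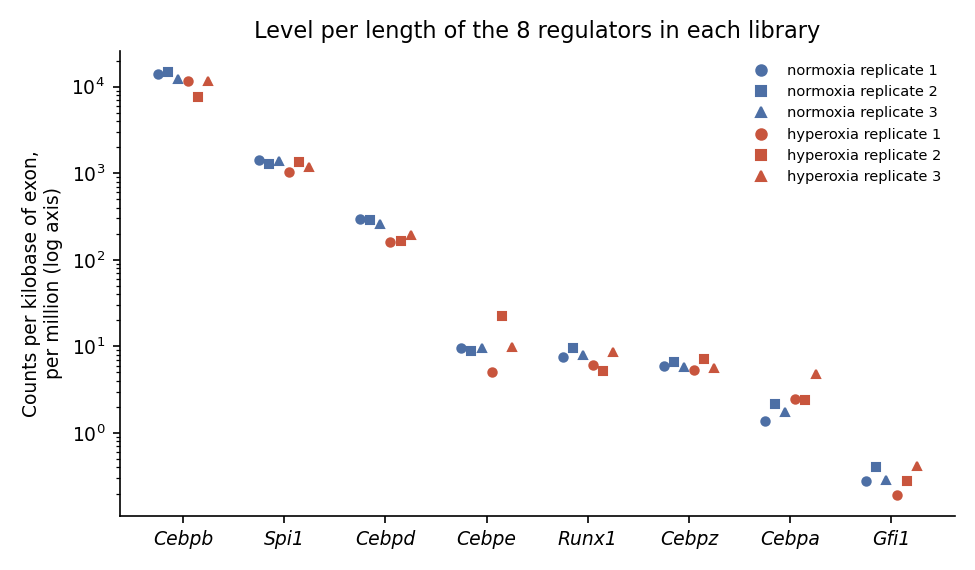
Level of each regulator (counts per kilobase of exon, scaled to 1000000 per library, log axis) in the 3 normoxia (blue) and 3 hyperoxia (red) libraries, 1 point per library. Cebpb lies above all others in every library, Cebpe, Runx1 and Cebpz overlap, and Cebpa and Gfi1 lie at the bottom.

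Cebpa and Cebpb, which lay at opposite ends of the C/EBP levels in the same cells, are shown by their promoters so that their start regions can be compared. Of the 8 genes, 4 (Cebpa, Cebpb, Gfi1 and Runx1) had promoter entries from RefSeq on GRCm38.p6, each of 250 bases before and 50 after a start site, and Gfi1 and Runx1 had a pair each. Both sequences below lie on the plus strand and are written 5′ to 3′, with capitals on the C/EBP core TTGCG and the cyclic AMP response element core TGACG, searched on both strands, and on the TATA box TATAAA, searched on the sense strand. No marked match overlaps another.
Cebpa, chr7:35119043-35119342: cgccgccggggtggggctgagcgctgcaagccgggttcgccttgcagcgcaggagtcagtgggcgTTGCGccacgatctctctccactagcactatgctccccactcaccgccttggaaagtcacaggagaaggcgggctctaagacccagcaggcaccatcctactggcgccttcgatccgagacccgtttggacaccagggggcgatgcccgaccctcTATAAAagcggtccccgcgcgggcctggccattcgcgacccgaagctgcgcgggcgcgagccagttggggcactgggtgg
Cebpb, chr2:167688665-167688964: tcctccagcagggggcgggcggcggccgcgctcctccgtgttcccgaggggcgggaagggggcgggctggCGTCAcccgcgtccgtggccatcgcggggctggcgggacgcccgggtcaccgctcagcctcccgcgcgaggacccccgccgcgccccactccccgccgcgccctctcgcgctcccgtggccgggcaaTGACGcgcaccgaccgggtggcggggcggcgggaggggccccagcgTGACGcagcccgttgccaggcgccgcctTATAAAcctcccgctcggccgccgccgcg

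The Cebpa window held 1 TTGCG match, beginning at position -185 from the start site (the start site is 1), and no TGACG; the Cebpb window held no TTGCG and 3 TGACG matches, at -180 on the opposite strand and at -53 and -7 on the sense strand. TATAAA began at -30 in Cebpa and at 22 in Cebpb. Of the 32851 promoters of the same length, 17.4% held TTGCG, 20.8% TGACG and 8.32% TATAAA. Cebpb was also richer in G and C, at 80.7% against 67.3% in Cebpa and a median of 52.7% over all promoters. These matches describe letters only.

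Between the groups, 0 of the 8 genes passed the adjusted threshold of 0.05 in edgeR (quasi-likelihood fit), as did 0% of all genes tested, and 0 of the 8 passed in DESeq2, beside 4.06% of all genes (3.65% higher and 0.411% lower in hyperoxia). At an unadjusted p under 0.05 there were 2 of the 8, Cebpa in the direction of hyperoxia and Cebpd in the direction of normoxia, beside 13% of all genes in either direction (9.1% higher and 3.91% lower in hyperoxia). The same genes were the 2 members whose groups did not overlap, beside 19.9% of all genes (9.57% above and 10.3% below). Since the members are only 8 genes, nothing is read from how these counts stand to the shares of all genes. The median log2 difference of the 8 was -0.07, and of all genes tested 0.04.

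**Figure D2:**
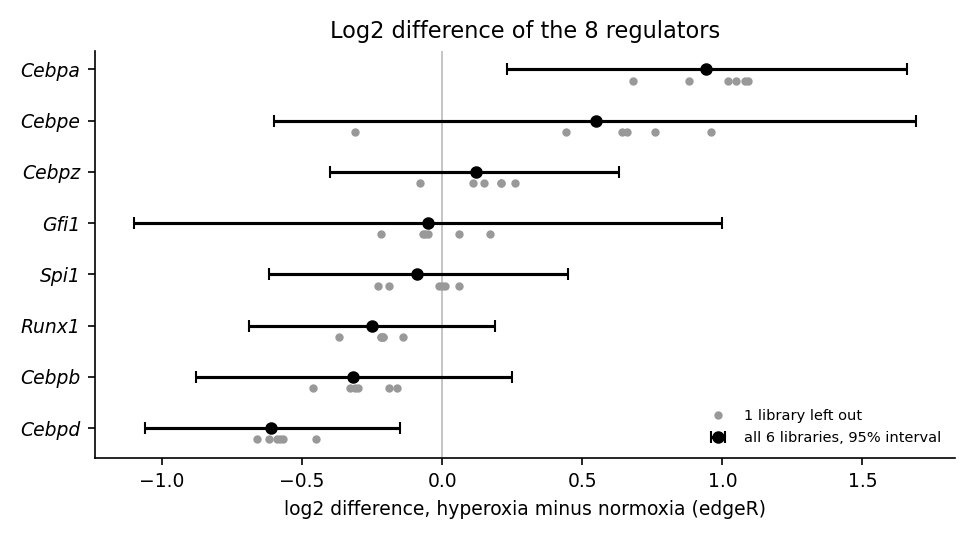
Log2 difference (hyperoxia minus normoxia, edgeR) of each regulator with its 95% interval (black) and its value with each library left out in turn (grey points). The intervals of Cebpa (0.23 to 1.66) and Cebpd (-1.06 to -0.15) lie to either side of 0. Cebpe, Cebpz, Spi1 and Gfi1 each change sign with at least 1 of the libraries left out.

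Cebpd (ENSMUSG00000071637, chr16:15887286-15891031, plus strand, GRCm38), which encodes the C/EBP factor known for its rapid induction by cytokines through STAT3, was lower in every hyperoxia library. It stood at 554, 462 and 459 CPM in normoxia and at 322, 336 and 311 CPM in hyperoxia. The lowest normoxia library lay well clear of the highest hyperoxia library, and the hyperoxia libraries were close to each other. The group means were 492 ± 54.1 and 323 ± 12.3 CPM (SD, n = 3 each). On the log2 scale Cebpd differed by -0.61 ± 0.20 (SE), which edgeR gave an unadjusted p of 0.0144 and an adjusted p of 0.272, while the DESeq2 adjusted p was 0.101. The unadjusted p was 0.133 without normoxia replicate 1, the highest library, and 0.0706 without normoxia replicate 3. Spidr, a gene of DNA repair on the opposite strand, shares 562 bases of exon with Cebpd. With its 1619 to 2171 counts per library added to those of Cebpd, the difference was -0.57 and its adjusted p 0.288, an alternative chosen after the data were seen.

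Cebpa (ENSMUSG00000034957, chr7:35119293-35121928, plus strand), the gene of the factor needed for granulocyte commitment, went the other way at a far lower level. The normoxia libraries held 1.78, 2.44 and 2.18 CPM and the hyperoxia libraries 3.42, 3.40 and 5.52 CPM, from 76 to 262 counts a library. Every hyperoxia library lay above every normoxia library, and hyperoxia replicate 3 was highest. The group means were 2.13 ± 0.333 and 4.11 ± 1.22 CPM (SD, n = 3 each). On the log2 scale Cebpa differed by 0.94 ± 0.31 (SE), which edgeR gave an unadjusted p of 0.0158 and an adjusted p of 0.276, while the DESeq2 adjusted p was 0.114. Without hyperoxia replicate 3 the difference was 0.68, with an unadjusted p of 0.0543 in edgeR.

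Markers of macrophages and dendritic cells were higher in the same hyperoxia libraries as Cebpa, whose gene is also active in monocytes and macrophages. Of the 14 monocyte and macrophage markers, 8 were higher at an unadjusted p under 0.05 and 8 lay above normoxia without overlap, and of the 10 dendritic cell and MHC class II markers 6 and 6, beside 9.1% and 9.57% of all genes. The same counts were 6 and 6 of 8 endothelial markers and 10 and 5 of the 11 stromal and smooth muscle markers tested. They were 3 and 1 of the 5 B cell markers tested and 3 and 1 of the 9 T and NK cell markers tested. Hyperoxia replicate 3, highest for Cebpa, was highest for the dendritic cell and MHC class II sum (2102 CPM). Hyperoxia replicate 2, with 3.40 CPM of Cebpa, was highest for the macrophage sum (3583 CPM, beside 3176 in replicate 3). The members of the macrophage list, named after their values were seen, were mixed. C1qa (97.94 against 42.24 CPM), C1qb, C1qc, Ms4a7, Cx3cr1, Mrc1, Mertk and Cd68 were higher in replicate 3 than in replicate 2. Ly6c2 (110.8 against 659.4 CPM), Apoe, Msr1, Adgre1, Fcgr1 and Csf1r were lower. The part of these cells in the Cebpa difference was not tested.

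**Figure D3:**
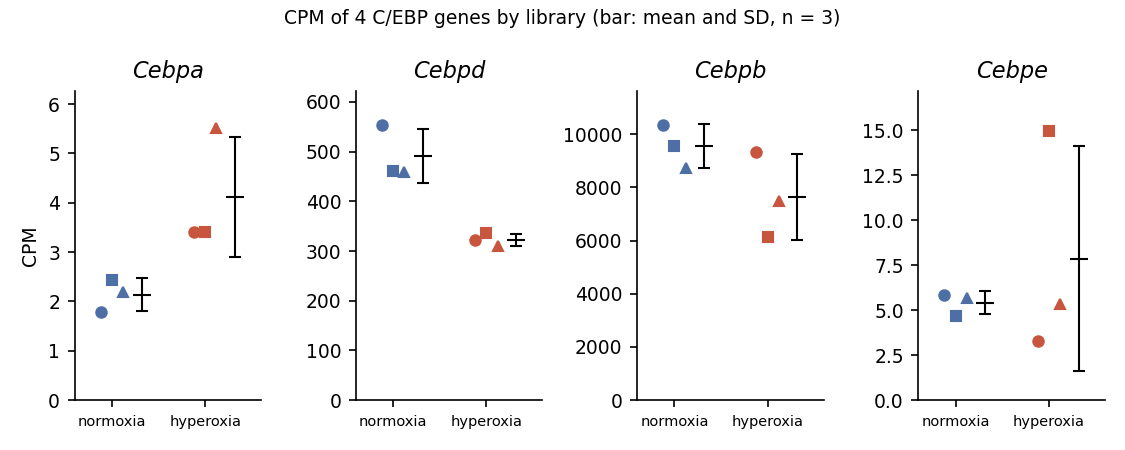
CPM of Cebpa, Cebpd, Cebpb and Cebpe in each normoxia (blue) and hyperoxia (red) library (circle, square and triangle for replicates 1, 2 and 3), with mean and SD (n = 3) at the side; axes start at 0. The groups do not overlap for Cebpa and Cebpd, overlap for Cebpb, and for Cebpe a single hyperoxia library stands at 14.97 CPM.

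Cebpb (ENSMUSG00000056501, chr2:167688915-167690418, plus strand, a single exon), the factor of mature and activated myeloid cells, stood at 10366, 9561 and 8734 CPM in normoxia and at 9351, 6129 and 7484 CPM in hyperoxia. Hyperoxia replicate 1 lay within the normoxia range and the other two hyperoxia libraries below it. The log2 difference was -0.32 ± 0.25 (SE; 95% interval -0.88 to 0.25; edgeR adjusted p 0.628). Tmem189, on the opposite strand, shares 312 bases of exon with Cebpb and had 15098 to 24016 counts a library; added to Cebpb, they gave a difference of -0.31.

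Cebpe (ENSMUSG00000052435, chr14:54710360-54712174, minus strand), the driver of late granule genes, was set apart by 1 library. It stood at 5.85, 4.68 and 5.68 CPM in normoxia and at 3.29, 14.97 and 5.33 CPM in hyperoxia, so that hyperoxia replicate 2 was above and replicate 1 below all normoxia libraries. Their exact Poisson intervals, which cover counting error only, ran from 14 to 15.9 CPM for replicate 2 and from 2.75 to 3.91 CPM for replicate 1. The log2 difference was 0.55 ± 0.50 (SE; 95% interval -0.60 to 1.69; edgeR adjusted p 0.691), and it was -0.31 without hyperoxia replicate 2.

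All 10 measured genes of a list known to depend on C/EBP epsilon were also highest in hyperoxia replicate 2. Ngp, a granule protein gene named, like Ltf, after its values were seen, stood at 515, 65.2 and 80.6 CPM in normoxia and at 206, 5548 and 33.3 CPM in hyperoxia. Ltf, the gene of lactoferrin, stood at 373, 165 and 184 CPM and at 330, 2552 and 142 CPM. Outside that library the groups were interleaved, with normoxia replicate 1 above the other normoxia libraries for all 10 genes, whereas its Cebpe was 5.85 CPM beside 5.68 in normoxia replicate 3. Hyperoxia replicate 1, the lowest library for Cebpe at 3.29 CPM, lay above every normoxia library for Lcn2 (1309 CPM), Mmp8 (920 CPM), Chil3 (29.9 CPM) and Cd177 (193 CPM). For the rest of the list (Ltf, Camp, Ngp, Mmp9, Itgb2l and Pglyrp1) it lay within the normoxia range. Lcn2 was named after its values were seen. The list's median log2 difference was 2.31, with 10 of 10 above 0 and 2 higher at an unadjusted p under 0.05 (beside 9.1% of all genes), and -0.01 without hyperoxia replicate 2, with 4 of 10 above 0 and 0 under that p. The number under that p was 6 without normoxia replicate 1, 3 without hyperoxia replicate 1, 9 without hyperoxia replicate 3, and 1 without normoxia replicate 2 or 3. Chil3, a chitinase-like gene, differed by 4.49 ± 1.39 (SE), or 1.08 without that library. Mmp8, a collagenase of specific granules, differed by 2.15 ± 0.93, or 0.63, and Cd177, a surface glycoprotein of neutrophils, by 2.53 ± 1.14, or 0.38. Their adjusted p in edgeR was 0.247, 0.376 and 0.395 with all libraries. Summed neutrophil markers were highest in the same library (113656 CPM, with 39776 to 68029 in the others). S100a8 (44970 CPM) and S100a9 (38862 CPM) made up most of that sum. The list shares 5 of these markers (Mmp9, Cd177, Ltf, Ngp and Camp). Those 5, S100a8, S100a9, Ly6g and Retnlg were highest in that library. Csf3r (1317 CPM) and Il1r2 (4823 CPM), named after their values were seen, were lowest there, and Cxcr2 (2174 CPM) was neither. The part of these markers in the Cebpe values was not tested.

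**Figure D4:**
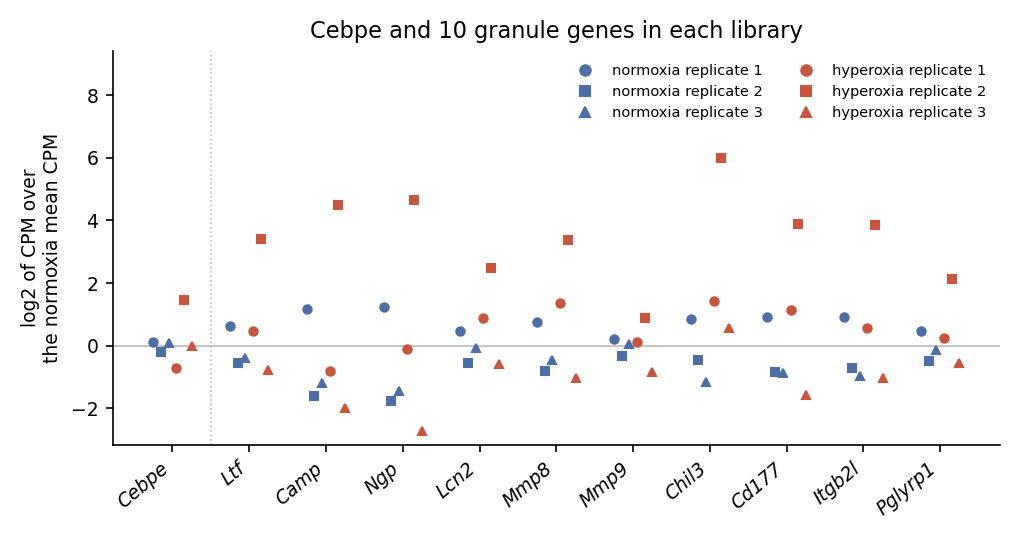
Log2 of CPM over the normoxia mean for Cebpe and the 10 granule genes in each library (blue normoxia, red hyperoxia; circle, square and triangle for replicates 1, 2 and 3). Hyperoxia replicate 2 (red square) is the highest point for Cebpe and for all 10 genes, while the other 5 libraries are interleaved.

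Of the 5 primary granule genes of immature cells, early targets of this network, 1 passed the filter: Prtn3, the gene of proteinase 3, averaged 4.54 ± 1.02 CPM in normoxia and 5.08 ± 5.17 in hyperoxia (SD, n = 3 each), with 11.05 CPM in hyperoxia replicate 2. Its log2 difference of 0.17 was -1.10 without that library. Mpo, Elane, Ctsg and Ms4a3 were too low to be tested.

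Cebpz (ENSMUSG00000024081, chr17:78919006-78937066, minus strand) stood at 13.8, 13.2 and 12.7 CPM in normoxia and at 13.3, 18.3 and 11.4 CPM in hyperoxia, again with hyperoxia replicate 2 highest. Its log2 difference was 0.12 ± 0.22 (SE; 95% interval -0.40 to 0.63; adjusted p of 0.876 in edgeR) and -0.08 without that library. Cebpzos, a mitochondrial protein gene on the opposite strand that shares 171 bases of exon, was also highest in that library, with 5.25 CPM in hyperoxia replicate 2 and 2.73 to 3.69 in the others.

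Spi1 (ENSMUSG00000002111, chr2:91082390-91115756, plus strand), the gene of the ETS factor PU.1, stood at 1902, 1484 and 1747 CPM in normoxia and at 1494, 1960 and 1386 CPM in hyperoxia, with fully interleaved groups. Its log2 difference of -0.09 ± 0.24 (SE) had a 95% interval from -0.62 to 0.45 (edgeR adjusted p 0.914). That interval holds 0 and differences of either sign, so no direction was resolved with these libraries.

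Runx1 (ENSMUSG00000022952, chr16:92601466-92826149, minus strand), the gene of the core binding factor that pairs with CBF beta, stood at 45.0, 50.1 and 44.8 CPM in normoxia and at 38.6, 33.8 and 45.1 CPM in hyperoxia. Hyperoxia replicate 3 lay within the normoxia range and the other two below it. The log2 difference was -0.25 ± 0.19 (SE; 95% interval -0.69 to 0.19; adjusted p of 0.622 in edgeR). Gm26626, an antisense gene on the opposite strand, shares 106 bases of exon with Runx1 and had 68 to 186 counts a library. Added to those of Runx1, they gave a difference of -0.27.

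Gfi1 (ENSMUSG00000029275, chr5:107716657-107726036, minus strand), the zinc finger repressor of monocytic genes, was near the limit of detection, with 19, 25 and 17 counts in normoxia and 13, 31 and 27 in hyperoxia. This was 0.437 to 0.555 CPM against 0.329 to 0.569 CPM, where the floor of 3 counts is at 0.047 to 0.0771 CPM. The exact Poisson intervals of the lowest library (0.175 to 0.563 CPM) and the highest (0.375 to 0.827 CPM) overlapped. A difference between single libraries was not tested. The log2 difference was -0.05 ± 0.46 (SE; 95% interval -1.10 to 1; adjusted p of 0.976 in edgeR). A430072P03Rik, a noncoding gene on the opposite strand, had 11 counts in hyperoxia replicate 3 and at most 1 elsewhere, and adding them turned the difference to 0.15.

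Relatives and modulators of the C/EBP factors, 12 genes that were all measured, had 8 differences below 0 and 4 above, and 0 passed the adjusted threshold in edgeR or in DESeq2. At an unadjusted p under 0.05 edgeR placed 0 higher and 1 lower (beside 3.91% of all genes lower), and 3 lay below normoxia in every hyperoxia library (beside 10.3%). The median was -0.13, and 0.07 with 7 above 0 without normoxia replicate 1. Ddit3, the gene of CHOP, a C/EBP relative that blocks its partners under stress, stood at 177, 193 and 233 CPM in normoxia and at 134, 57.3 and 102 CPM in hyperoxia, with no overlap. Ddit3 differed by -1.04 ± 0.31 (SE) on the log2 scale, which edgeR gave an unadjusted p of 0.01 and an adjusted p of 0.239, while the DESeq2 adjusted p was 0.0625. Cebpg, a short C/EBP factor without an activating domain, was tight in normoxia at 45.6, 45.2 and 45.1 CPM and lay at 39.96, 33.1 and 31.8 CPM in hyperoxia, a difference of -0.37 ± 0.18 on the log2 scale (edgeR adjusted p 0.431). Id1, the third of those without overlap and named after its values were seen, averaged 170 ± 2.22 against 133 ± 21.6 CPM (SD, n = 3 each). Id2, a helix-loop-helix inhibitor, had a difference of 0.67 ± 0.30 with an adjusted p of 0.395 and overlapping groups.

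Among relatives and cofactors of PU.1, GFI1 and RUNX1, 17 of 20 were measured, with a median of -0.11 (0.03 without normoxia replicate 1), and 1 of them, on the lower side, had an unadjusted p under 0.05 (beside 3.91% of all genes). That gene was Jun, the AP-1 subunit that partners PU.1, at 1042 ± 122 CPM in normoxia and 589 ± 307 in hyperoxia (SD, n = 3 each), a difference of -0.82 ± 0.35 (SE) on the log2 scale (edgeR adjusted p 0.375). Its hyperoxia libraries were at 942, 392 and 432 CPM, and without replicate 1 the difference was -1.31 with an adjusted p of 0.0489. With any of the other 5 libraries left out Jun differed by -0.82 to -0.58, with an unadjusted p of 0.111 to 0.131 in edgeR, and that p was 0.0566 and 0.0726 with RLE and upper quartile scaling. Fli1, an ETS factor, differed by -0.40 ± 0.23 and Kdm1a, the demethylase that GFI1 recruits, by -0.29 ± 0.18, with adjusted p of 0.506 and 0.536.

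Of 13 regulators of monocyte and macrophage fate, 12 were measured, with 7 on the higher and 2 on the lower side at an unadjusted p under 0.05 (beside 9.1% and 3.91% of all genes). Of these 12, 5 were called higher by DESeq2 (beside 3.65%), and the median was 1.24. With each library left out, 5 to 8 were on the higher and 0 to 2 on the lower side at that unadjusted p. In edgeR 0 of the 12 passed the adjusted threshold. Irf8, the monocyte and dendritic cell factor that restrains neutrophil fate, stood at 8.05, 7.12 and 8.71 CPM in normoxia and at 21.9, 38.2 and 36.7 CPM in hyperoxia, above normoxia in 3 of 3 libraries. Its log2 difference of 2.02 ± 0.26 (SE) had an adjusted p of 0.0974 in edgeR and 1.43e-08 in DESeq2. In edgeR that p was 0.00117 without a filter on low counts and, with libraries left out, 0.0227 (without hyperoxia replicate 1) to 0.529, and in limma-voom it was 0.176, or 0.0384 with sample quality weights. Klf4, a monocyte factor, had 3.96, 3.88 and 4.21 CPM in normoxia against 7.42, 14.4 and 11.2 CPM in hyperoxia. Its adjusted p was 0.115 in edgeR (0.0173 without a filter and 0.0346 without hyperoxia replicate 1) and 0.000562 in DESeq2. The macrophage and dendritic cell markers given above were higher in the same libraries, and their part in these values was not tested.

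Of 9 receptor genes that these factors are known to drive, 0 were under an unadjusted p of 0.05 and the median was -0.01. Itgb2, the beta chain of CD11b/CD18, differed by 0.35 ± 0.28 (SE), Csf2rb, the shared beta chain of the GM-CSF receptor, by -0.22 ± 0.24, and Fcgr3, an Fc gamma receptor, by -0.18 ± 0.23. Inflammatory targets of C/EBP beta and delta had a median of 0.92 over 8 genes, with 5 above 0 and 3 below. The 3 below, named after their values were seen, were Il1b (-0.16), Ptgs2 (-0.60) and Tnf (-0.02), all with overlapping groups. They averaged 39690, 1268 and 429 CPM in normoxia, far above the levels of Il10, Il6 and Csf3 given next. Of these 8, 3 were on the higher side at that p (beside 9.1% of all genes) and 2 were called higher by DESeq2 (beside 3.65%). Il10 stood at 0.936, 1.40 and 1.36 CPM in normoxia and at 3.39, 2.15 and 7.16 CPM in hyperoxia (log2 difference 1.78 ± 0.47, adjusted p of 0.185 in edgeR and 0.00968 in DESeq2). Il6 differed by 2.51 ± 0.80 with adjusted p of 0.262 and 0.0328, from 0.284 ± 0.0435 to 1.62 ± 1.58 CPM (SD, n = 3 each), and Csf3, the gene of G-CSF, by 1.22 ± 0.53 with adjusted p of 0.376 and 0.178. For Il6, hyperoxia replicate 1 (0.278 CPM) lay within the normoxia range. For Csf3, hyperoxia replicate 2 (17.1 CPM) lay below every normoxia library (20.0 to 30.5 CPM), so the groups overlapped. Without hyperoxia replicate 3, the highest library for all 3 genes, the differences were 1.2 for Il10, 1.41 for Il6 and 0.57 for Csf3, and the unadjusted p in edgeR was 0.0155, 0.0779 and 0.243. That library also had the highest dendritic cell and MHC class II marker sum (2102 CPM), and the macrophage marker sum was above normoxia in all hyperoxia libraries. Their part in these values was not tested. Cebpb (-0.32 ± 0.25, SE) and Cebpd (-0.61 ± 0.20) themselves had negative differences, with adjusted p of 0.628 and 0.272 in edgeR. The relation of the targets to these 2 genes was not tested. Of the 5 erythroid and megakaryocyte regulators, 3 were measured and 0 were under that p: Gata2 differed by 1.02 ± 0.56, Tal1 by 0.61 ± 0.59 and Nfe2 by 0.28 ± 0.44, the last -0.18 without hyperoxia replicate 2.

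Ratios of 2 regulators within a library do not depend on how libraries are scaled. For 4 ratios, exact two-sided permutation tests over 3 against 3 libraries cannot give a p below 0.1. The log2 ratio of Cebpa to Spi1 counts was -10.05, -9.24 and -9.64 in normoxia and -8.77, -9.17 and -7.97 in hyperoxia, a difference of 1.01 without overlap (p = 0.1, the smallest possible; adjusted p = 0.2, exact permutation test). That of Gfi1 to Irf8, opposed factors of granulocyte and monocyte fate, was -4.14, -3.66 and -4.28 against -6.00, -6.28 and -5.99, a difference of -2.06 without overlap at the same p values. Gfi1 alone differed by -0.05 and Irf8 alone by 2.02 on the log2 scale. Summed macrophage and dendritic cell markers were higher in the same hyperoxia libraries, and their part in both ratios was not tested. The ratios of Cebpe to Cebpb (difference 0.59, p = 0.7, adjusted p = 0.7) and of Cebpb to Cebpd (0.26, p = 0.4, adjusted p = 0.533) overlapped in the same exact permutation test, and the former was -0.17 without hyperoxia replicate 2.

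**Figure D5:**
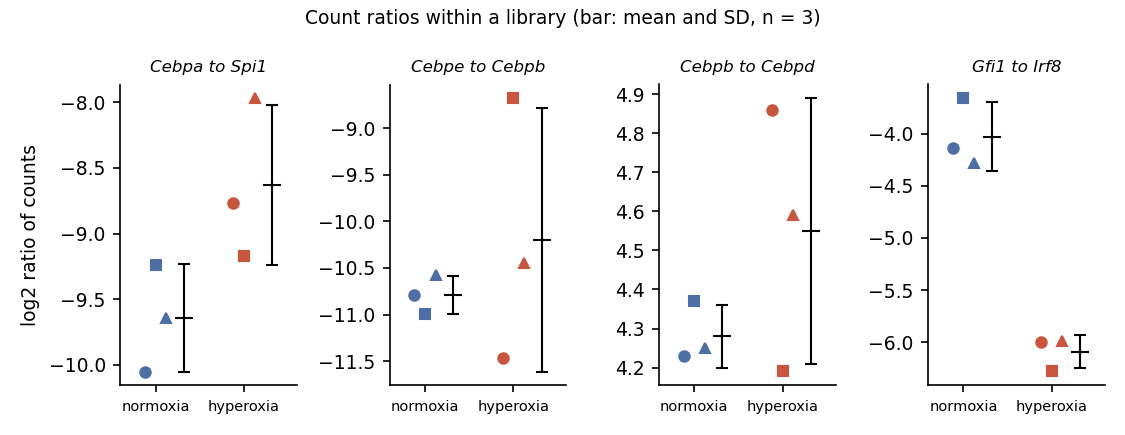
Log2 ratio of the counts of 2 regulators within each library (blue normoxia, red hyperoxia; circle, square and triangle for replicates 1, 2 and 3), with mean and SD (n = 3). The groups separate for Cebpa to Spi1 and for Gfi1 to Irf8 and overlap for the other ratios; each panel has its own axis, which does not start at 0.

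Patterns over the 6 libraries are given as descriptions with no p, since the libraries share depth and group differences. Among well-measured genes (average log2 CPM of at least 3), those most like Cebpa in log2 CPM were Dab2 (Pearson r = 0.992) and Cxcl16 (0.984), and 60 of 5181 genes had an r over 0.9. Those most like Cebpd were Pkn2 (0.995) and Ubald1 (0.989), most like Cebpb Atf7ip and Nisch (0.996 each), and most like Cebpe Mindy3 (0.996) and Ndufb11 (0.995). Cebpz was closest to Fam241a (0.999) and Med31 (0.996), Spi1 to Ppp2r3c (0.974) and Ube2d3 (0.971), Gfi1 to Nsmce3 (0.989) and Odr4 (0.986), and Runx1 to Ubxn2a (0.994) and Ppp2r2a (0.993). Genes with an r over 0.9 numbered 285 for Cebpb, 99 for Cebpd, 215 for Cebpe, 384 for Cebpz, 56 for Spi1, 70 for Gfi1 and 182 for Runx1. The named genes are thus the highest of many, and the Gfi1 pattern rests on 13 to 31 counts a library. Within the 8 genes, Cebpa and Cebpd were the most opposed (r = -0.93), and Cebpe was most like Cebpz (0.80).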

How the data were processed

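For each library the authors deposited raw counts, 1 value per Ensembl gene. Reads were aligned with STAR 2.4.2a to GRCm38, per the submitters' processing notes, which also name DESeq2 1.16.1; the counter, whether it used strand, and the annotation it used are not given in the sources used here. If strand was not used, reads of a gene and an overlapping gene on the other strand cannot be told apart. Of 43432 IDs, 42548 took symbols, exons and coordinates from GENCODE M21 (GRCm38), and the remaining 884 took up no more than 0.25% of any library.

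Counts were filtered with filterByExpr, scaled by TMM and tested with a robust quasi-likelihood fit in edgeR 4.0.16 (R 4.3.3), two-sided, and p-values were adjusted by Benjamini-Hochberg over the 12908 tested genes. Groups follow the housing condition in the labels, and replicate numbers only name libraries, in accession order. Nothing in the labels says that libraries came from separate animals, so the p-values reflect only how much these samples vary, and that variation may be technical. No 2 libraries matched within sampling noise. Alternatives, 2 of them chosen after seeing the data (counts of overlapping genes added, lists with each library left out), used DESeq2 1.42.0, limma 3.58.1, other scaling and filters, and each library left out. The fits were tested on simulated data.

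The members, the 8 further gene lists, the 10 marker lists and the tests were chosen with earlier results of these data known. Named genes were the 8 members, the 3 genes of each list with the lowest p, Cebpg, Irf8 and Cebpzos, genes overlapping a member, and, for each member, the 2 genes of highest Pearson r among those averaging 3 or more in log2 CPM, leaving out gene models without a proper name. The floxed allele and 1 of the genes this rule names are not reported here.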

Additional observations from a re-analysis of the deposited data

How the results depend on the processing

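None of the 8 regulators passed an adjusted p of 0.05 under any alternative that was run, with any library left out, or at a threshold of 0.1. Cebpa (0.68 to 1.09) and Cebpd (-0.66 to -0.45) kept their direction with each library left out, as did Cebpb (-0.46 to -0.16) and Runx1 (-0.37 to -0.14). Over the same fits, Cebpe ran from -0.31 to 0.96, Cebpz from -0.08 to 0.26, Spi1 from -0.23 to 0.06, Gfi1 from -0.22 to 0.17, Cebpzos from -0.01 to 0.49, Nfe2 from -0.18 to 0.64 and Prtn3 from -1.10 to 0.59, so that leaving out 1 library changed their sign. Gfi1 was 0.15 with the overlapping gene's counts added. Prtn3 was -0.19 in limma-voom and -0.61 with sample quality weights. Differences of log2 ratios ran from 0.68 to 1.27 for Cebpa to Spi1, -0.17 to 1.22 for Cebpe to Cebpb, 0.11 to 0.44 for Cebpb to Cebpd and -2.19 to -1.88 for Gfi1 to Irf8. Between 1 and 2 of the 8 regulators were under an unadjusted p of 0.05.

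Over all genes, 0 were called in edgeR, where an unadjusted p under 0.05 gave 1175 on the higher and 505 on the lower side. DESeq2 called 461 higher and 52 lower, edgeR without a filter 205 and 9, limma-voom with sample quality weights 35 and 1, and a threshold of 0.1 gave 28 and 2. With libraries left out, calls ran from 0 to 164 higher and 0 to 12 lower, the highest without hyperoxia replicate 1, and genes at an unadjusted p under 0.05 from 801 to 1763 higher and 149 to 850 lower. The cause of these shifts was not tested. No paired analysis was possible because the labels give no replicate numbers, and those used here follow accession order. Gfi1 and Cebpa have few counts, which limits their precision.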
